A study of Mus musculus with 4 samples.

Results

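The Zbtb genes described here are the mouse protein-coding genes of the GENCODE M21 annotation whose symbol is Zbtb followed by a number, with or without a letter after it, and Zbtb16 is not counted among them. This rule gave 39 of 21951 protein-coding genes, 38 on autosomes and 1, Zbtb33, on the X chromosome, spread over 15 chromosomes. A listed small RNA was assigned to a gene when its whole sequence matched, in sense or in antisense, a transcript of that gene and of no other gene. The 39 genes took 19328 of 4906138 listed sequences (0.394%), of which 19045 were sense and 283 antisense. All 39 had at least 1 sense sequence.

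The sequences were small RNAs bound to MILI (Piwil2), a PIWI protein of male germ cells, and came from the testes of 14 dpp (days post partum) C57BL/6 mice. The study made 2 libraries from heterozygous Tdrd9+/- testes and 2 from Tdrd9-/- testes, to ask what loss of TDRD9, a helicase of the piRNA pathway, does to the RNAs that MILI binds. The labels do not say how many animals each library held, and no wild-type group is among these 4 libraries. The table pools the 4 libraries into 1 list of distinct sequences with mm9 positions, without read counts or library names. Depth per library is therefore unknown, the genotypes were not compared, and there is no replicate error. Intervals below, except in the section on processing, are exact Clopper-Pearson 95% intervals that cover counting error over distinct sequences only. Sequences that begin at the same position share their first base and are not independent, so these intervals are too narrow.

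Zbtb proteins join a BTB (POZ) domain at the amino end, through which they pair and bind corepressors such as NCoR and BCoR, to zinc fingers of the Cys-His type near the carboxyl end that read DNA. Members are known as switches of cell fate, above all in lymphocytes, and others read methylated CpG sites, bind telomere repeats or act in brain and muscle. PIWI-interacting RNAs (piRNAs) are cut from long single-stranded precursors in germ cells. Many precursors at this age are ordinary messenger RNAs, whose 3′ UTRs are the best known source, and primary piRNAs are known to begin mostly with U.

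The sequences below show what these MILI-bound RNAs looked like. For each of the 6 genes with the most sequences, the longest sequence at the 5′ end shared by the most sequences is printed, 5′ to 3′, with T for U and the first base in capitals; where several ends tied, 1 of them is shown.
Zbtb37: Tgggacttttgacatggcagcttaggctgg
Zbtb20: Taggacactaaagacggaaccatgtgagt
Zbtb43: Tgagcttggtgaggatgaagtgcttttg
Zbtb44: Taggaaatacaactgcaagagataattgta
Zbtb39: Tgagttgagcgacgacagcgaggacgacc
Zbtb49: Tgagctggagcagtgaggtctcgtaacact
All of these begin with T. The Zbtb37 sequence lay in the 3′ UTR at chr1:162941771-162941800 (mm9, minus strand), where 10 sequences shared the 5′ end. That of Zbtb20 lay in the 3′ UTR at chr16:43624101-43624129 (plus), with 7 sequences, and that of Zbtb43 in the 3′ UTR at chr2:33307268-33307295 (minus), with 7. The Zbtb44 sequence was in the 3′ UTR at chr9:30879150-30879179 (plus), with 6 sequences at its end. In Zbtb39 the fullest end was in the coding sequence, at chr10:127179574-127179602 (plus), with 7. In Zbtb49 it began in the coding sequence and ran into the 3′ UTR, at chr5:38591862-38591891 (minus), also with 7.

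The 10 sequences at the Zbtb37 end differed only in where they stopped, which is how 1 5′ end gives several entries in the list. The shortest, the one of the most common length among the Zbtb sequences, 27 nt, and the longest are shown, with the bases beyond the shortest in capitals.
Zbtb37, 19 nt: tgggacttttgacatggca
Zbtb37, 27 nt: tgggacttttgacatggcaGCTTAGGC
Zbtb37, 30 nt: tgggacttttgacatggcaGCTTAGGCTGG
Because of such sets, distinct 5′ ends are used below as the unit of density, and sequences as the unit of share. The 19045 sense sequences started at 11615 distinct ends. Of these ends, 63.5% held a single sequence and 818 (7.04%) held 4 or more. Ends with 4 or more sequences began with U in 91.0% of cases and single-sequence ends in 55.9%.

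The Zbtb genes were rich in MILI-bound sequences as a set. Their median was 221 sense sequences per gene (quartiles 145 and 662), beside 19 over all protein-coding genes and 54 over the 15946 genes with any sequence. Across all protein-coding genes 72.6% had 1 or more sense sequences, 56.3% had 10 or more and 24.9% had 100 or more. All 39 Zbtb genes had 10 or more, and 33 of 39 (84.6%) had 100 or more. The 4 with 1000 or more were Zbtb37, Zbtb20, Zbtb43 and Zbtb44 (10.3%), a level reached by 1.52% of all protein-coding genes.

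Longer transcripts can hold more distinct sequences, so the genes were also compared per length. Zbtb transcripts had a median length of 4944 nt, against 2882 nt for all protein-coding genes. The median density was 47.1 distinct 5′ ends for each kb of a gene's longest transcript (quartiles 22.03 and 62.1), beside 5.74 over all genes and 13.7 over genes with any sequence. Ends on any transcript of a gene were counted here. The Zbtb median was 39.7 with only ends on the longest transcript and 34.9 per kb of all exons merged, with no all-gene medians to set beside these. Density was above the all-gene median in 38 of the 39, Zbtb9 being the exception, and above the median of genes with sequences in 34. Of all genes 27.6% had 20 or more ends per kb, 8.22% had 50 or more and 1.64% had 100 or more. Among the Zbtb genes 30 had 20 or more, 18 had 50 or more, and 2, Zbtb49 and Zbtb43, had 100 or more. Pooled over the set, density was 50.5 ends per kb against 19.1 for all protein-coding genes. The set held 0.854% of the sense sequences of protein-coding genes on 0.309% of their transcript length.

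**Figure D1:**
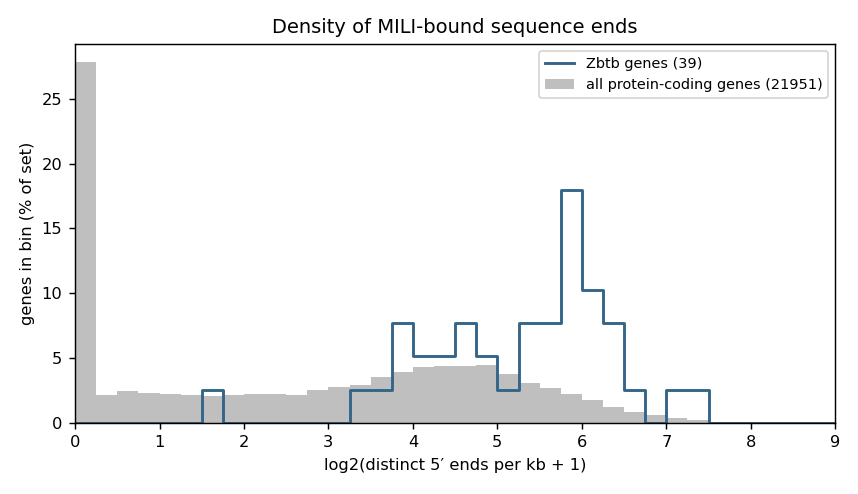
Share of genes (% of each set) by density, plotted as log2 of distinct 5′ ends per kb plus 1, for all 21951 protein-coding genes (grey) and the 39 Zbtb genes (blue line). Most Zbtb genes sit to the right of the grey bulk, around their median of 47.1 ends per kb, and Zbtb9, at 2.33, stands alone on the left.

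These values describe RNA pooled from whole testes, where fewer cells of a type and less RNA per cell cannot be told apart. Cell type markers were looked up in the same list. Because the list holds only RNAs bound to MILI, a germ cell protein, it cannot show which cells the tissue held. All 6 germ cell markers (Ddx4, Dazl, Kit, Stra8, Sycp1, Sycp3) had 140 to 288 sense sequences, or 30.7 to 74.3 ends per kb. Of 4 spermatid markers, Prm1, Prm2 and Acrv1 had 0 and Tnp1 had 19 (29.7 ends per kb). Sertoli cell markers Sox9, Amh and Wt1 had 27, 7 and 7, or at most 4.84 ends per kb. Of 3 Leydig cell markers, Cyp17a1 and Insl3 had 0 and Star had 247 (40.8 ends per kb). All these counts are of sense sequences. In antisense, Star had 105, Amh 37, Prm1 24 and Acrv1 8, and the other markers had at most 11. The part of these cell types in the Zbtb values was not tested.

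Sequence number was uneven among the Zbtb genes. The first 3 genes held 38.3% of all Zbtb sense sequences, the first 6 held 53.0% and the first 10 held 67.5%. The lowest were Zbtb9 with 10, Zbtb7b with 55 and Zbtb45 with 84. Across the 39 genes, Spearman's rho between transcript length and number of sequences was 0.487 (0.474 over all protein-coding genes). Between length and density it was 0.0448. These correlations run across genes, which share the same libraries, and are given as a description.

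**Figure D2:**
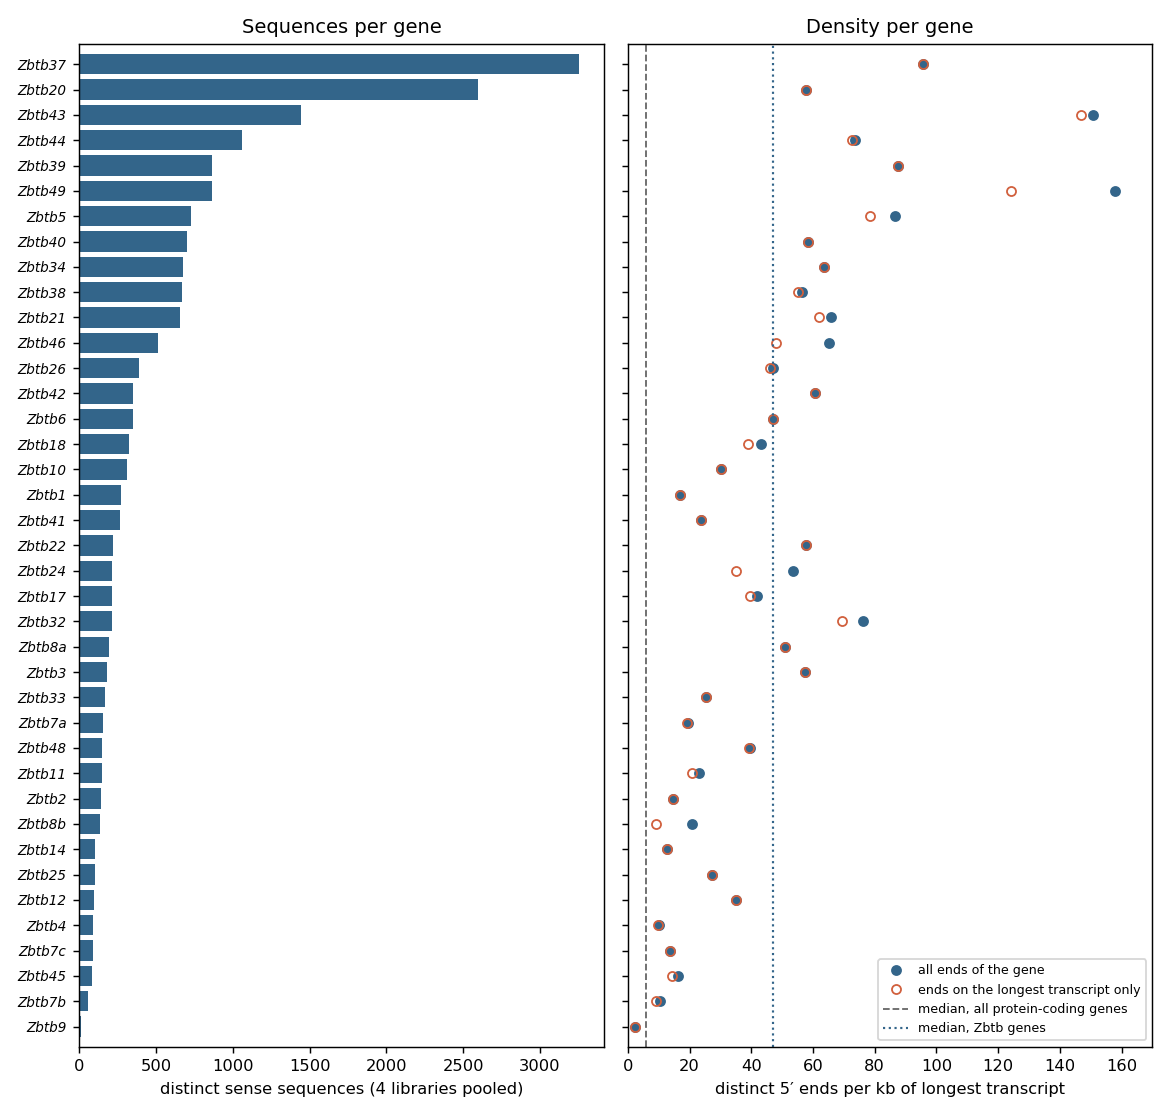
Left, distinct sense sequences of each of the 39 Zbtb genes over the 4 pooled libraries; right, their density in 5′ ends per kb of longest transcript, counting all ends of the gene (filled) or only those on that transcript (open). Zbtb37 leads by number with 3254 sequences and Zbtb49 and Zbtb43 lead by density with 158 and 151 ends per kb.

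The highest numbers belonged to genes with very long 3′ UTRs. Zbtb37 (chr1:162935972-162964405 from first to last matched sequence, mm9, minus strand) had 3254 sense and 4 antisense sequences at 1798 sense ends, or 95.6 ends per kb of a transcript of 18814 nt. Its 3′ UTR of 16999 nt held 1716 ends (101 per kb), against 45.5 per kb of coding sequence. Ends that matched no other gene covered the 3′ UTR up to 14053 nt from the stop codon. In the last 2946 nt the transcript overlaps, on the opposite strand, one of Serpinc1, the antithrombin gene, and the rule on shared matches left out all 592 sequences there. These started at 314 ends, or 107 per kb, so MILI-bound sequences ran on through this stretch at a like density. Zbtb20 (chr16:42876001-43642595, plus), a repressor needed in hippocampus and liver, had 2597 sequences at 1557 ends, or 57.9 per kb. Its 3′ UTR of 23858 nt, the longest in the set, held 1529 of them, and its coding sequence of 2226 nt held 23.

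Some genes of ordinary length were denser than these. Zbtb43 (chr2:33305898-33324072, minus), whose protein is known to act in prospermatogonia, had 1444 sequences at 753 ends, or 151 per kb of 4998 nt. Its coding sequence and 3′ UTR were alike in density, at 141 and 151 ends per kb. Zbtb49 (chr5:38581250-38611681, minus), known as an activator of the cell cycle inhibitor p21, had 864 sequences at 470 ends, or 158 per kb of 2978 nt. Its density depended on the transcript used: 124 per kb when only the 370 ends on the longest transcript were counted, and 56.6 per kb of all its exons merged (8305 nt). The coding sequence was the dense stretch, at 150 ends per kb, with 43.1 in the 3′ UTR.

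Zbtb5, a repressor of the same inhibitor gene p21 (chr4:45004155-45024577, minus), had 729 sequences at 408 ends, or 86.7 per kb, with 112 per kb of coding sequence and 67.8 in the 3′ UTR. Zbtb39 (chr10:127176693-127184358, plus) had 867 sequences at 521 ends, or 87.4 per kb. Its antisense count was 0, which at this number of sequences allows a share of up to 0.425%. Zbtb44 (chr9:30860830-30883414, plus) had 1061 sequences at 651 ends, or 73.5 per kb of 8861 nt.

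**Figure D3:**
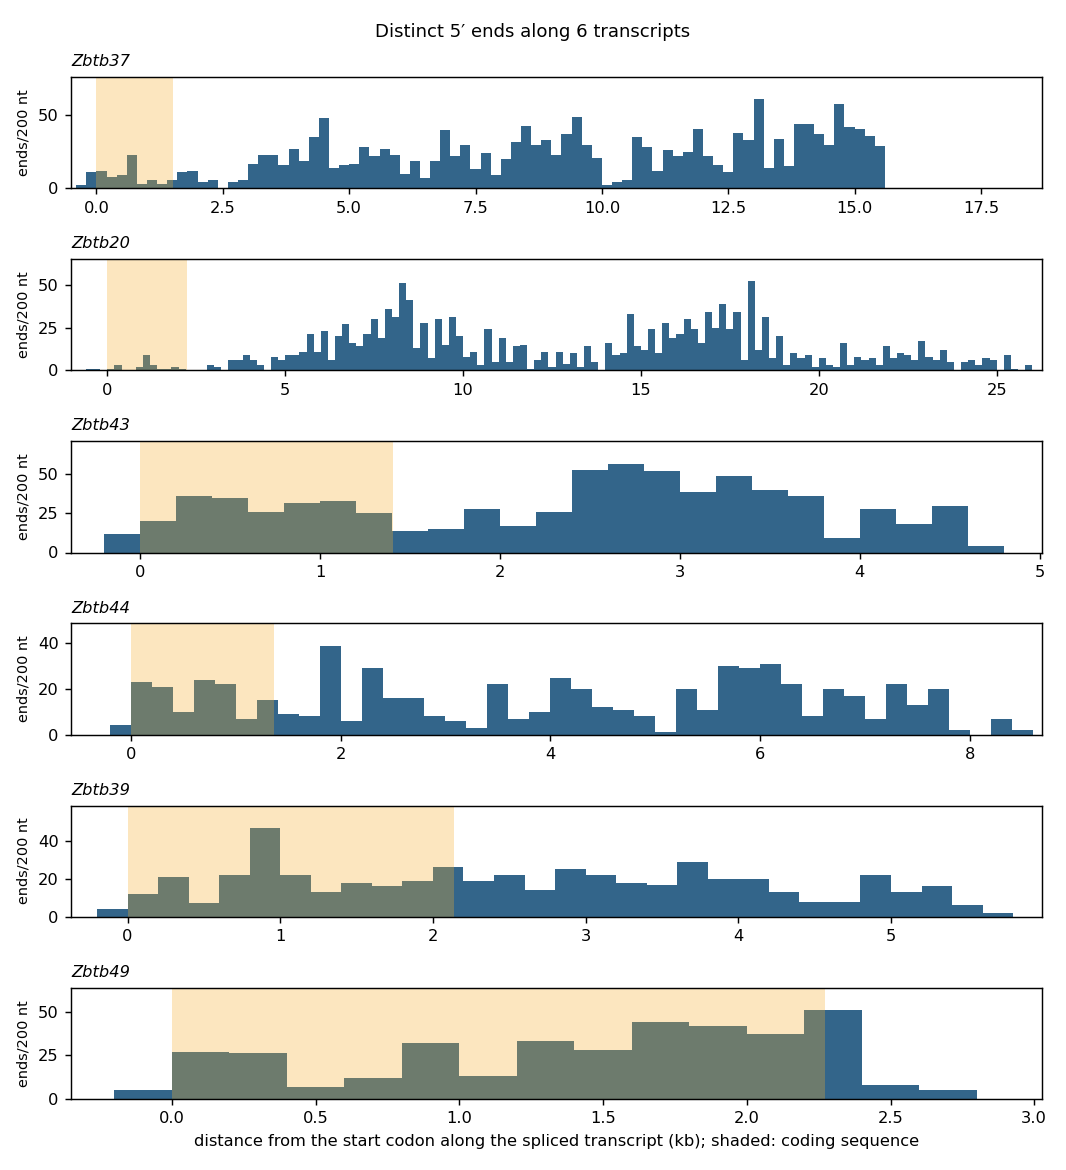
Distinct sense 5′ ends in bins of 200 nt along the longest transcript of the 6 genes with the most sequences, against distance from the start codon in kb, with the coding sequence shaded. Ends run through the 3′ UTR of Zbtb37, whose blank last 2946 nt is where the 314 ends of sequences shared with Serpinc1 were left out, and in Zbtb49 they fill the coding sequence, where 341 of the 370 ends on this transcript lie.

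The 3 readers of methylated CpG differed widely. Zbtb38 (chr9:96583269-96652884, minus) had 667 sequences at 417 ends, or 56.3 per kb. Zbtb33, which encodes Kaiso (chrX:35543027-35549657, plus), had 169 at 129 ends, or 25.2 per kb. Zbtb4 (chr11:69579951-69597317, plus) had 90 at 78 ends, or 9.99 per kb. The order was the same by number and by density. Zbtb38 density was 35.5 per kb when all its exons were merged, which left it above both of the others. Zbtb33 and Zbtb38 were denser in coding sequence (34.7 and 74.3 ends per kb) than in 3′ UTR (19.5 and 49.1), whereas Zbtb4 had 8.48 and 11.3.

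Factors of lymphocyte and blood development had a median of 212 sequences, close to the 221 of the whole set, and 5 of 6 had 100 or more. Zbtb46 (chr2:181122499-181159095, minus), a mark of classical dendritic cells, had 514 sequences and 65.2 ends per kb, or 48.03 when only ends on the longest transcript were counted and 40.7 per kb of merged exons. Zbtb1 (chr12:77486298-77497612, plus), needed for lymphocyte development, had 269 but only 16.8 per kb, on a transcript of 12190 nt. Zbtb17, which encodes the MYC partner MIZ1 (chr4:141000636-141023620, plus), had 214 and 42.0 per kb. Zbtb32 (chr7:31374734-31383883, minus), a repressor in activated lymphocytes, had 210 on the shortest transcript of the set, 1775 nt, and was the sixth densest gene with 76.1 per kb.

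Both Zbtb7 genes of this list were sparse. Zbtb7a, the LRF gene of blood lineages (chr10:80598221-80614800, plus), had 157 sequences and 19.5 ends per kb. Zbtb7b, which encodes ThPOK, the factor of helper T cell fate (chr3:89181584-89197543, minus), had 55 and 10.4 per kb. Their density was under the lower quartile of the Zbtb genes (22.03) and above the median of all protein-coding genes (5.74).

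The telomere binders Zbtb10 (chr3:9250698-9285146, plus) and Zbtb48 (chr4:151393904-151401728, minus) had 311 and 151 sequences. Per length their order was reversed, with 30.1 ends per kb in Zbtb10 and 39.5 in Zbtb48, whose transcript is shorter (2709 against 7414 nt). Zbtb24 (chr10:41170908-41185351, plus), a gene of DNA methylation at centromeres, had 215 sequences and 53.4 ends per kb. This value also rested on the transcript used: 35.2 per kb with only the ends on the longest transcript and 29.7 per kb of merged exons.

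Factors of brain and muscle ran from 84 to 2597 sequences and from 16.4 to 60.7 ends per kb. Beside Zbtb20, Zbtb42 (chr12:113917108-113920933, plus), a muscle gene, had 350 sequences and 60.7 ends per kb, and its close relative Zbtb18 (chr1:179373380-179380663, plus), needed in cortical neurons, had 322 and 43.3. Zbtb45 (chr7:13589299-13595349, minus), a gene of glial development, had 84 and 16.4. Zbtb20 thus had the most sequences of the list and Zbtb42 the highest density.

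Zbtb9 had the fewest sequences, 10 at 8 ends (2.33 per kb; chr17:27144276-27145281, plus), but this count was set by the rule on shared matches. Another 342 Zbtb9 sequences also matched Ggnbp1 in sense, and with shared sequences counted Zbtb9 had 352. All 8 of its own ends lay in the 3′ UTR. Over the set, 14 genes had sense sequences that were shared and left out, 1171 when summed over genes. The neighbours Zbtb6 and Zbtb26 shared 37 sequences with each other. With shared sequences counted, the median of the set was 264 and 35 genes had 100 or more.

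BTB zinc-finger genes with other names were more mixed. Of 8 (Bcl6, Bcl6b, Patz1, Hic1, Hic2, Gzf1, Mynn and Zfp131), 4 had 100 or more sequences and their median was 114.5, or 19.4 ends per kb. Hic2, a relative of a tumour suppressor gene, had 1267 and Gzf1 549, while Bcl6, the germinal centre repressor, had 31 and Zfp131 had 0. These counts leave out sequences that also matched another gene, whose number in Zfp131 was not determined. Of 12 partners of BTB zinc-finger proteins, 5 had 100 or more, with a median of 90. The corepressor gene Ncor1 had 150 sense sequences, fewer than its 176 antisense ones. In sense, the ubiquitin ligase scaffold gene Cul3 had 206 and Myc 3.

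Within the transcripts, coding sequence held more ends per length than 3′ UTR in most Zbtb genes, as in most protein-coding genes compared. Of all protein-coding genes that could be compared (50 ends or more, with both regions of 100 nt or longer), 42.8% had a denser 3′ UTR. Among the Zbtb genes this was so in 10 of 35, Zbtb37, Zbtb20, Zbtb43, Zbtb44, Zbtb40, Zbtb6, Zbtb10, Zbtb41, Zbtb32 and Zbtb4. Zbtb44 was the only 1 of the 35 to change sides on the coding transcript with the most ends, where it had 73.1 ends per kb of 3′ UTR and 86.6 of coding sequence. The median ratio of 3′ UTR to coding density was 0.812, close to the 0.851 of all genes. It depended on the transcript used: on the coding transcript with the most ends it was 0.700, with no all-gene median to set beside it. A ratio under 0.5 was found in 12 of 35 Zbtb genes and in 28.6% of all genes, and a ratio over 2 in 3 and in 14.3%.

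The extremes lay far apart. The highest ratios belonged to Zbtb20 (64.1 against 10.3 ends per kb, ratio 6.20), Zbtb32 (161 against 57.9, ratio 2.77) and Zbtb37 (2.22). The lowest belonged to Zbtb14, a repressor of Myc, with 37.04 ends per kb of coding sequence and 1.18 of 3′ UTR (ratio 0.0319). Next came Zbtb12 (41.3 and 8.10, ratio 0.196) and Zbtb21 (95.9 and 19.2, ratio 0.2004). In Zbtb14 50 ends lay in 1350 nt of coding sequence and 3 in 2541 nt of 3′ UTR.

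**Figure D4:**
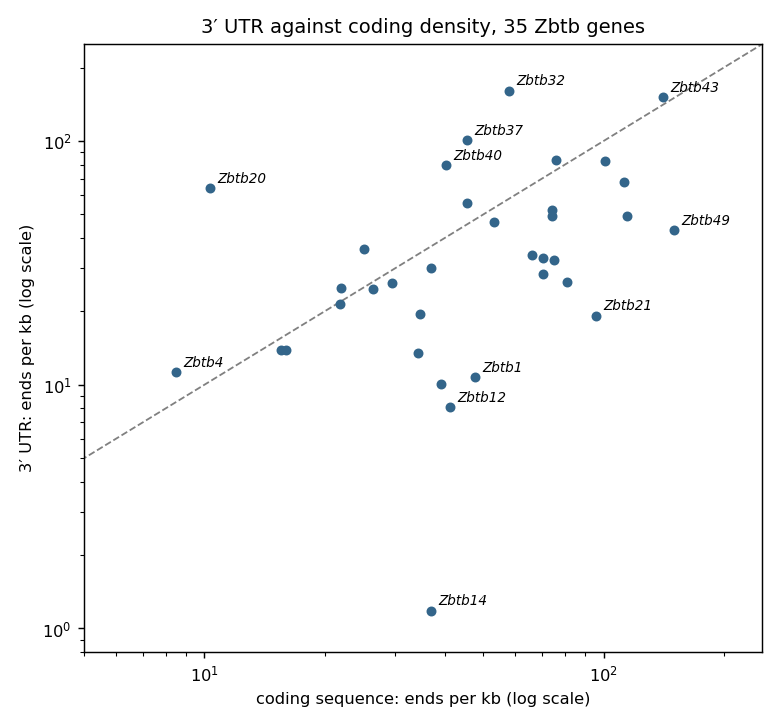
Distinct 5′ ends per kb of 3′ UTR against ends per kb of coding sequence, both on log axes, for 35 Zbtb genes (those with 50 ends or more, and regions of 100 nt or more); the dashed line marks equal density. Of the 35 genes, 10 lie above the line, with Zbtb20 farthest above and Zbtb14 farthest below.

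The pooled 3′ UTR values rested largely on Zbtb37 and Zbtb20. Over all Zbtb genes, density was 12.01 ends per kb of 5′ UTR, 53.5 of coding sequence and 50.4 of 3′ UTR, beside 9.56, 17.1 and 22.3 over all protein-coding genes. Zbtb coding sequence was thus further above the all-gene value than its 5′ UTR or 3′ UTR. Zbtb37 and Zbtb20 held 51.2% of the 3′ UTR ends of the set on 32.5% of its 3′ UTR length. These values are for the transcripts with the longest coding sequence. There the 3′ UTR of Zbtb44 held 47 ends, against 521 on its coding transcript with the most ends. The pooled 3′ UTR density was 0.943 of the coding density with them and 0.664 without them, and 1.31 times the coding density over all protein-coding genes.

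Along the 3′ UTR, 25 of 34 Zbtb genes had a higher density of ends before the midpoint than after it, as did 56% of protein-coding genes with a 3′ UTR of 500 nt or more. This split used the coding transcript with the most ends. Its 3′ UTR can be longer than in the comparison of regions above, as in Zbtb44 (7130 against 564 nt) and Zbtb26 (3499 against 649 nt). Summed over the Zbtb genes the split was nearer to even, 3636 ends before and 3257 after. Zbtb18 had 46 and 9, Zbtb34 had 169 and 71, and Zbtb8a had 17 and 1. The reverse held in Zbtb6 (38 and 137) and in Zbtb25, a gene of T cell signalling (10 and 25). Zbtb37 and Zbtb20 were close to even, at 910 and 806 and at 773 and 756. The Zbtb37 count after the midpoint leaves out the 314 ends shared with Serpinc1, all of which lie there. With them, more Zbtb37 ends would lie after the midpoint than before it. Zbtb37 is thus among the 25 only by ends that match no other gene. Along the coding sequence, cut into 10 equal bins, Zbtb ends were densest in bins 1, 4 and 5 (72.9, 73.0 and 73.8 per kb, 31 genes) and stood at 62.6 in bin 10. Over all protein-coding genes density went from 0.880 of the mean in bin 1 to 1.27 in bin 10, while the Zbtb genes stood at 1.16 in bin 1 and 0.999 in bin 10.

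The zinc-finger codons, near the carboxyl end of the protein, were less dense than the rest of the coding sequence in most members. Fingers were found by their pattern of cysteines and histidines, and genes with 2 or more fingers and 50 or more coding ends were compared. Finger codons were less dense in 43.8% of all such genes and in 18 of 28 Zbtb genes, with a median ratio of 0.771. Pooled, Zbtb finger codons had 51.9 ends per kb and other Zbtb coding sequence 59.9 (ratio 0.866). The 198 other finger genes stood on the other side, at 56.0 and 49.7 (ratio 1.13). The finger codons of the Zbtb genes held slightly more U (22.7%) than their other codons (20.5%). Counting only ends that begin with U, per kb of U, the ratios were 0.741 and 1.03.

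Single genes went both ways. In Zbtb18, 3 of its coding ends lay in the 255 nt of its 4 fingers and 126 in the other 1341 nt. Zbtb14 had 2 in the 318 nt of 5 fingers and 48 elsewhere. Zbtb46, by contrast, had 135 ends per kb in its 2 fingers and 47.1 elsewhere (ratio 2.86), Zbtb42 had 123 and 61.9 (ratio 1.98), and Zbtb11, with 12 fingers, had 31.4 and 18.8 (ratio 1.66). Finger codons resemble each other between genes, and sequences that matched a second gene were left out. In the coding sequence of all 39 Zbtb genes, not only the 28 compared, 11 such ends fell in fingers and 160 outside. They were not split by gene, and their effect on the finger comparison was not tested.

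The Zbtb sequences had the length of those of other genes and began with U slightly more often. Their length was 27.1 nt on average (SD 1.36 over sequences, range 18 to 33, mode 27), and 75.2% were 26 to 28 nt long, against 75.5% for all protein-coding genes. RNAs of about 28 to 30 nt had been cut from a gel beforehand. The first base was U in 71.8% of sequences (interval 71.1 to 72.4%), beside 69.3% (69.2 to 69.3%) over all protein-coding genes and 26.7% U in the Zbtb transcripts. By distinct ends it was 64.4%, beside 63.0% over all protein-coding genes, whose transcripts held 25.7% U. The share exceeded the transcript's own U content in all 38 Zbtb genes with 50 or more sequences, as in 8307 of 8308 protein-coding genes (100%).

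**Figure D5:**
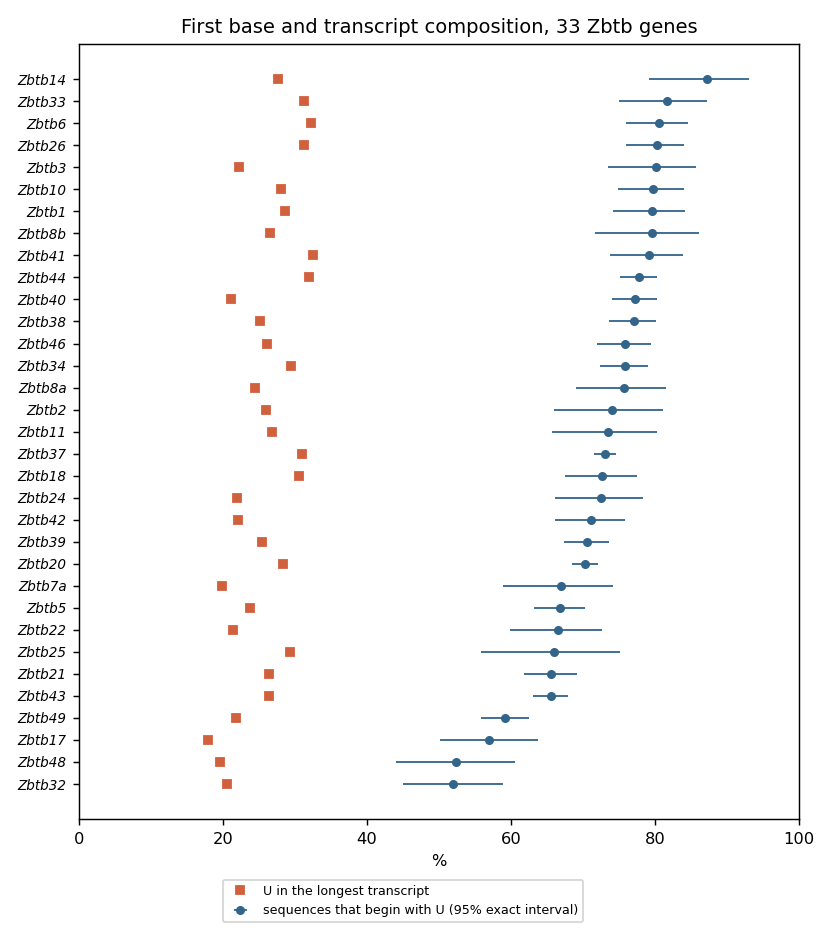
Share of sense sequences that begin with U (points with exact 95% intervals) and share of U in the longest transcript (squares), both in %, for the 33 Zbtb genes with 100 or more sequences. Every point lies to the right of its square, from Zbtb14 (87.3%) down to Zbtb32 (51.9%).

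First-base U differed between genes, and the highest and the lowest are given here. By distinct ends Zbtb14 and Zbtb32 stood at 80.0% and 45.2%, and the values that follow are by sequences. Zbtb14 was highest among genes with 100 or more sequences, at 87.3% (79.2 to 93.04%), and Zbtb33 had 81.7% (74.985 to 87.2%). Zbtb32 was lowest at 51.9% (44.9 to 58.8%), with Zbtb48 at 52.3% (44.04 to 60.5%) and Zbtb17 at 57.0% (50.1 to 63.7%). The low genes were also poor in U: transcripts of Zbtb32, Zbtb48 and Zbtb17 held 20.5%, 19.6% and 17.8% U, and Zbtb14 and Zbtb33 held 27.7% and 31.2%. Across the 33 genes, Spearman's rho between transcript U and first-base U was 0.593, as a description over genes that share the same libraries. The excess over the transcript ranged from 31.4 percentage points in Zbtb32 to 75.5 in Zbtb9, which rests on 10 sequences, with a median of 48.1. By region, the first base was U in 67.02% of coding sequences, on 20.5% U, and in 73.5% of 3′ UTR sequences, on 30.6% U.

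Other positions were less marked. Among the 11143 distinct ends on the longest transcripts, U stood at 64.1% at position 1 and at 19.0% at position 2, where G stood at 33.1%. A was at 31.3% at position 10, the position a partner that begins with U would face in an overlap of 10 nt. It was higher at position 5 (35.4%) and stood at 30.3% and 35.1% at these positions over all genes. In the base that followed the 3′ end in the transcript, U was at 26.9%, beside 25.2% over all genes. The 5′ end of a further sequence lay directly after a 3′ end in 1244 pairs, against a mean of 1298 at the next 19 distances (1229 to 1380), a ratio of 0.958 (0.996 over all genes).

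Antisense sequences were few beside the sense ones. Their share falls as sense sequences rise, and the Zbtb genes were rich in sense sequences. Antisense density per length was not compared. They made up 1.46% of Zbtb sequences (1.30 to 1.64%), beside 4.74% (4.71 to 4.77%) over all protein-coding genes. Of genes with 50 or more sequences of either strand, 15.1% had more than 10% antisense and 33.9% had 0. Among the 38 Zbtb genes of that depth, 2 passed 10% and 10 had 0. The 2 were Zbtb7b, with 27 antisense beside 55 sense sequences (32.9%, 22.9 to 44.2%), and Zbtb12 (chr17:35031528-35033801, plus), with 28 beside 95 (22.8%, 15.7 to 31.2%). Zbtb46 had 49 (8.70%) and Zbtb5 had 35 (4.58%).

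A sense and an antisense piRNA whose first 10 bases pair are the known trace of the ping-pong cycle, in which 1 PIWI-cut RNA gives rise to another. Zbtb ends formed 20 such pairs, against a mean of 17 (8 to 23) at the other overlaps from 1 to 20 nt, a ratio of 1.18. The count at 10 nt was thus inside the range of the other overlaps. The pairs lay in 8 genes, with 10 in Zbtb5, 3 in Zbtb22, 2 in Zbtb43 and 1 in each of the other genes. In 19 of 20 the antisense end held a single sequence, in 14 it began with U, and in 8 both ends did. The pairs with the most sense sequences are printed as examples, each strand 5′ to 3′ with T for U, and the 10 paired bases in capitals.
Zbtb43 sense: TGCATGGTCAgatgttttaggttgggaa
Zbtb43 antisense: TGACCATGCAgaacagacctcaaggacag
Zbtb5 sense: TGAACTCCGTtgttaaggcatgtaaacatt
Zbtb5 antisense: ACGGAGTTCAgatgcaggtgagaggc
The Zbtb43 pair lay in the 3′ UTR, with the sense sequence at chr2:33308033-33308060 (minus) and its partner at chr2:33308051-33308079 (plus). The Zbtb5 pair lay in coding sequence, at chr4:45007903-45007932 (minus) and chr4:45007923-45007948 (plus). Each sense end held 5 sequences and each antisense end 1.

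Within the genes' mm9 spans, from first to last matched sequence, sequences that matched no annotated transcript were sparse beside those in exons. In the 28 genes with at least 1000 nt of span outside exons, unmatched ends on the gene's strand stood at 2.05 per kb of that span, and the genes' own ends at 47.8 per kb of merged exon. The pooled value rested on Zbtb20, which holds 735865 nt of the span outside exons: it was 4.62 without that gene and 1.45 without Zbtb49, and the median over genes was 2.92. Over the other protein-coding genes with 10 or more sequences the pooled value was 0.837. Merged exons were denser in 98.2% of protein-coding genes with 10 or more sequences and in 27 of the 28 Zbtb genes. The exception by this measure was Zbtb18 (34.9 against 49.7 per kb, over 1146 nt counted as outside exons). Length outside exons was the span minus all merged exon, including any exon beyond the first or last matched sequence. It can be too small, as in Zbtb2, where it came to -1211 nt, so densities outside exons may be overstated. Whether Zbtb18 is a true exception was not tested. Introns and exons missing from the annotation were not told apart, and junction-crossing sequences cannot be in a list of unspliced genome matches.

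A few spans stood out. Zbtb49 had 1644 unmatched sequences, more than its 864 matched ones, and 1330 of them lay in the 5000 nt at chr5:38592557-38597556. Their first base was U in 61.0% (58.6 to 63.4%), close to the 59.1% of the matched Zbtb49 sequences. Zbtb21 had 343, of which 279 lay within 5000 nt, Zbtb46 had 320, Zbtb32 had 267 and Zbtb17 had 222. In Zbtb32 and Zbtb17 these too outnumbered the matched sequences, as in Zbtb7c (138 against 88) and Zbtb7b (69 against 55). Unmatched sequences of Zbtb32 and Zbtb17 began with U more often than matched ones, at 85.8% (81.0 to 89.7%) and 84.2% (78.8 to 88.8%). The same held in Zbtb46 (85.3 against 75.9%), Zbtb21 (76.4 against 65.6%) and Zbtb18 (78.7 against 72.7%, interval 68.7 to 86.6%). First bases of unmatched sequences were looked up only in these genes and Zbtb49. In the 5000 nt after the last matched sequence, Zbtb25 had 467 unmatched sequences on its strand, beside 100 matched ones, Zbtb40 had 369 and Zbtb3 had 155.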

How the data were processed

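The authors deposited 1 table, which per the file headers holds sequence, chromosome, start, end and strand of MILI-bound small RNAs. Start and end are genome positions, with no other measured value such as a count. Per the submitters' processing notes the genome was mm9; the aligner and any filters were not given in the sources used here. As 4 libraries share the table without a library column, the planned genotype comparison, a count model, was not made.

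Whole sequences were matched exactly, on both strands, to 141767 GENCODE M21 transcripts (GRCm38; no coordinate was converted). Sequences that also matched another gene on either strand were left out. Symbols with a letter were counted (Zbtb8a); Zbtb8os was tried as an alternative. The longest transcript gave densities, and the one with the longest coding sequence gave regions and fingers. The coding transcript with the most ends gave the split at the 3′ UTR midpoint. The matching was tested on simulated data: 500 of 500 planted sequences were found, with 0 matches of random ones. Matching ran in numba 0.67.0 with numpy 2.4.6 under Python 3.11.15, tables in pandas 2.3.3, intervals in scipy 1.17.1 and plots in matplotlib 3.10.9.

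The members and lists were chosen with earlier results of these data known. Named genes were the 6 with the most sequences, the 6 densest, the 3 with the fewest sequences, the 3 highest and 3 lowest in 3′ UTR to coding density, those above 10% antisense, and the role lists (methyl-CpG, blood, telomere, centromere, brain and muscle). Other genes were named after their values were seen. Of the related lists at most 4 values each are given, and 1 gene is not reported here.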

Additional observations from a re-analysis of the deposited data

How the results depend on the processing

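From 50.5 ends per kb, pooled density became 53.6 with only symbols without a letter, 54.3 per kb of the transcript with the longest coding sequence, 51.6 per kb of start positions within 1 exon, 48.4 with only ends on the longest transcript, 42.9 per kb of merged exons, and 82.7 when sequences replaced ends. Genes past the minimum numbered 33 at 100 sequences and 4 at 1000. By distinct ends the first base was U in 64.4% and antisense made up 2.01%. Unmatched ends in gene spans, 2.05 per kb, were 1.45 without Zbtb49 and 4.62 without Zbtb20. The other 24 alternatives for the set left its values inside their intervals or moved them by less than 1.5 times. For densities these were Poisson intervals on the number of ends. For the 3′ UTR and finger comparisons they were binomial over genes and wide, 14.6 to 46.3% and 44.1 to 81.4% of genes. Median ratios were not part of this check: they ran from 0.700 to 0.812 for 3′ UTR and from 0.710 to 0.838 for fingers. The 2 merged or single-transcript densities and the alternatives without Zbtb49 or Zbtb20 were chosen after seeing the data, as was leaving out Zbtb37 and Zbtb20. No paired analysis was possible because the table has no library column; leaving out each replicate was not run for the same reason. Distinct sequences without counts limit every value: abundant and rare RNAs count alike, and depth per library is unknown.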

Other observations

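Zbtb2, known as a reader of unmethylated CpG sites, was listed on the plus strand of chromosome 10 in mm9 and stands on the minus strand in the GRCm38 annotation, the only 1 of 39 Zbtb genes whose strand differed. Its counts do not depend on this, since sequences were matched to transcripts. It had 139 sense and 11 antisense sequences at 99 sense ends (14.6 per kb), with 34.3 ends per kb of coding sequence and 13.5 of 3′ UTR.

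By number, though not per length, opposite-strand sequences in the spans were highest in Zbtb7c, a relative of Zbtb7a, with 176 beside its 88 sense sequences, of which 169 matched no annotated transcript. The span of Zbtb7c outside exons is long (131892 nt), and its same-strand unmatched ends stood at 1.001 per kb.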
